A study of Mus musculus with 4 samples.

Results

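The Src locus was examined in maps of the transcription factor p63 and of acetylated histone H3 (H3K27ac) made by chromatin immunoprecipitation and sequencing (ChIP-seq). Members were all called peaks whose midpoint lies in chr2:157100000-157450000 of the mm9 mouse genome, a stretch of 350 kb. These were 6 of the 4130 p63 peaks and 97 of the 183757 H3K27ac peaks. The gene was placed at about 157.244 to 157.298 Mb, a span of 54 kb. The locus was chosen because its 100 kb window chr2:157200001-157300000 (below, the Src window) ranks high in 3 measured values. It was selected on its number of H3K27ac peaks, the bases they cover and its number of p63 peaks, so these 3 quantities are described and not tested.

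The libraries came from primary epithelial progenitor cells of the salivary gland of adult mice, 12 weeks old and wild type for p63. There were 4 libraries in 4 groups of 1: a ChIP with the anti-p63 monoclonal antibody 4A4, a ChIP with an antibody to H3K27ac, and an input without antibody for each. Each peak list is 1 ChIP called against 1 input, with no replicate, no peak height and no read number. The depth of the libraries is therefore unknown, and every value below describes these libraries, with no test over samples. How many animals or cultures stand behind each library is not given in the sources used here.

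Src is a non-receptor tyrosine kinase that relays signals from integrins and growth factor receptors to the cytoskeleton, cell junctions and growth control, and it was the first cellular proto-oncogene to be traced from a retroviral oncogene. p63 is a p53-family transcription factor of basal and progenitor cells in stratified and glandular epithelia. It binds DNA through paired half-sites with a core that often reads CATG. H3K27ac is laid down by the acetyltransferases p300 and CBP at active promoters and enhancers. It is carried by nucleosomes, so a stretch free of nucleosomes can show as a dip between acetylated flanks.

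The RefSeq promoter of Src (GRCm38.p6, chromosome 2, plus strand) is shown because the given gene start lies in the acetylated core of the locus. The 250 bases before the start follow, 5′ to 3′, with capitals at the GC box GGGCGG, a letter pattern bound by Sp-family factors.
Src promoter: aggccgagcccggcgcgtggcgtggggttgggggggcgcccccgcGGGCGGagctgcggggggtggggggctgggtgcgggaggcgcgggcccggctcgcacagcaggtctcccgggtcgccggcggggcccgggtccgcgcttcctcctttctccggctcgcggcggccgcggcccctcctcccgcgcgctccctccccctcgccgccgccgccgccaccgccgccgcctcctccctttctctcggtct
This stretch is 82.8% G or C and holds 40 CpG dinucleotides, against medians of 52.4% and 6 over the 32851 promoters of the same table. GGGCGG was found 1 time on the given strand and 0 times on the other, and 32.7% of all promoters hold it on either strand. CATG, which reads the same on both strands, was not found, whereas 53.9% of all promoters hold it. This says only that these letters are not in this window. The table is of another build than the peaks, and its Src gene is 47.9 kb long, shorter than the 54 kb span used here. The RefSeq start was therefore not placed among the peaks. In that table the protein-coding genes next to Src are Ghrh and Manbal on the upstream side, and Gm14279 and Blcap on the downstream side. No peak was assigned to any of these genes.

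The Src window combined dense acetylation with several p63 sites. It held 64 H3K27ac peaks that covered 35305 bases, or 35.3% of the window, and 6 p63 peaks. A median window with any H3K27ac held 6 H3K27ac peaks and 1106 bases. Among the 23256 windows of 100 kb with a peak of either list, it ranked 6th by number of H3K27ac peaks, tied with 1 other window, and 6th by H3K27ac bases. By number of p63 peaks it ranked 3rd, again tied with 1 other window. These ranks are what the locus was picked for. They depend on where windows begin: with windows moved by 50 kb, the one that holds most of Src had 39 H3K27ac peaks (rank 133), 20014 H3K27ac bases (rank 64) and 4 p63 peaks (rank 10).

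Other windows with dense H3K27ac are described beside it, with the same counts on which the locus was selected. Of the 44 windows with 50 or more H3K27ac peaks, the other 43 held at most 4 p63 peaks, the median over all 44 was 1, and 9 held none. The window with the most H3K27ac peaks, chr7:30200001-30300000, had 79 of them over 25973 bases, and 4 p63 peaks. Peaks averaged 552 bases in the Src window and 329 bases in that one. Other dense windows averaged more, such as chr7:29700001-29800000 with 749 bases, or less, such as chr12:8800001-8900000 with 400 bases. The window with the most H3K27ac bases, chr15:77600001-77700000, had 43152 bases and 3 p63 peaks. Dense acetylation thus occurred elsewhere with fewer p63 peaks.

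**Figure D1:**
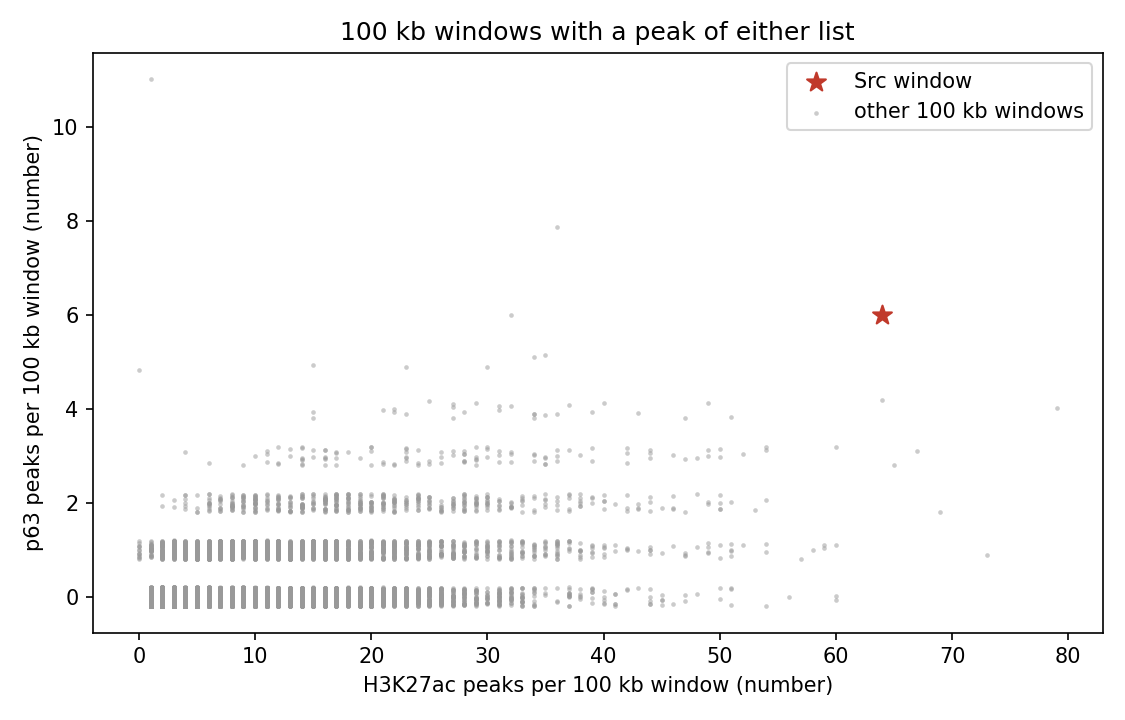
Each point is a 100 kb window with a peak of either list, placed by its number of H3K27ac peaks (x axis) and of p63 peaks (y axis; points other than the star are spread slightly up and down so that they do not hide each other). The star marks the Src window, with 64 H3K27ac and 6 p63 peaks.

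Within the locus, acetylation was densest in the Src window. The window held 64 H3K27ac peaks in 100 kb, whereas the flank on the upstream side held 20 in 100 kb and the flank on the downstream side 13 in 150 kb. By bases, H3K27ac peaks took up 35.3% of the window, 5.36% of the upstream flank and 2.98% of the downstream flank. All 6 p63 peaks lay in the window and 0 in the flanks. The window was chosen for its H3K27ac and p63 peaks, so these contrasts with its flanks follow in part from that choice. Over the genome, 3256 of the 26387 windows of 100 kb held a p63 peak, so stretches without p63 are common. The window had no empty 10 kb bin, and neither did the upstream flank, whereas 6 of the 15 bins of the downstream flank held no H3K27ac peak. The share of empty bins over the genome was not computed. Per 100 kb the upstream flank held 20 H3K27ac peaks and the downstream flank 8.67. A median window with any H3K27ac held 6, so both flanks were above it.

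The rise and the fall of acetylation were not symmetric. Coverage here is the summed width of the H3K27ac peaks with midpoint in a bin, as a percentage of its length. A peak that crosses a bin edge is counted whole in the bin of its midpoint, so the bases truly covered in a bin differ somewhat. On the upstream side, coverage per 10 kb bin was 2.17% in the bin that starts 64 kb before the given Src start and 20.05% in the next bin, and it stayed between 20.05% and 29.4% up to the bin that ends 4 kb before that start. It was 63.7% in the bin that holds the start and 84.2% in the bin after it, which begins 6 kb into the gene. That bin ranked 30th by H3K27ac bases among the 102468 bins of 10 kb with any H3K27ac, where the median is 247 bases. Coverage was 30.8%, 41.6%, 26.2% and 11.5% in the following 4 bins, and 2.69% in the first bin past the window. The densest H3K27ac was thus at the gene start and shortly inside the gene, and it fell away near the given gene end.

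**Figure D2:**
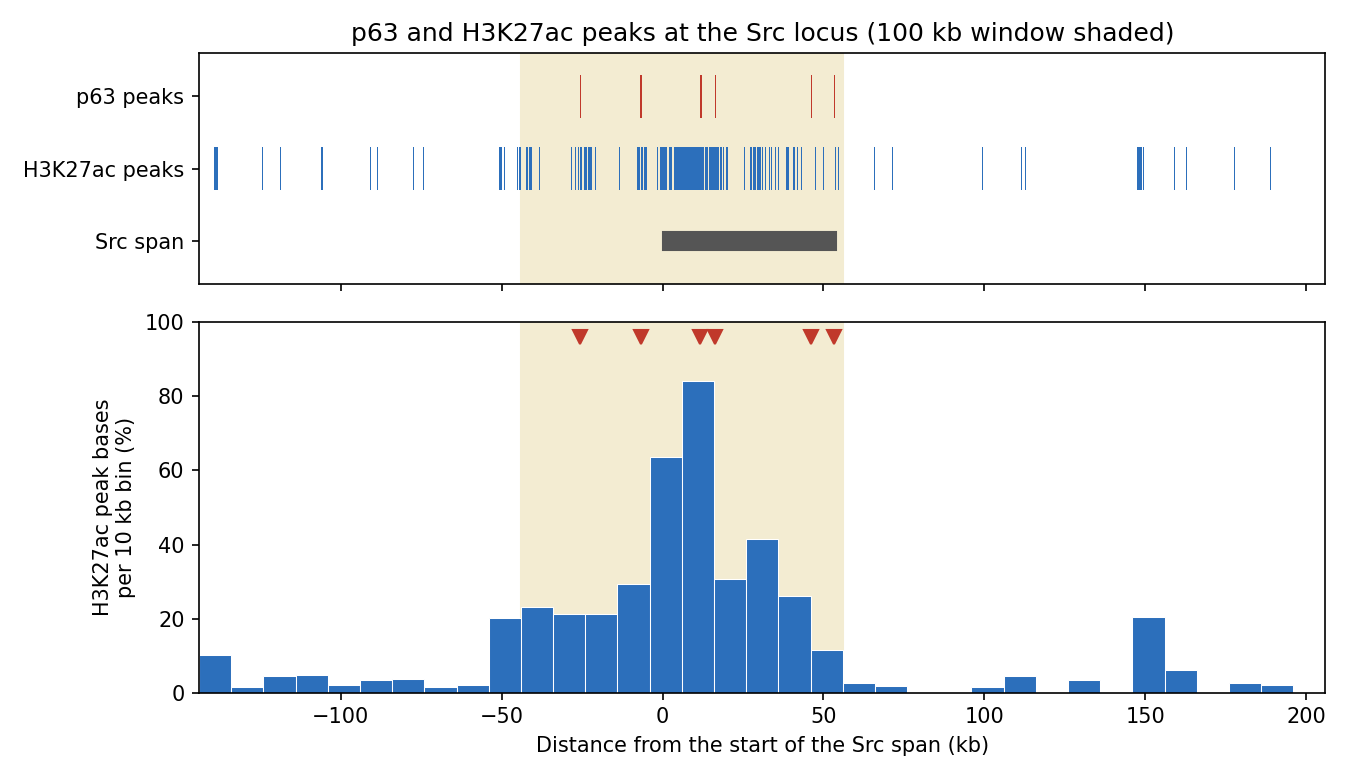
Upper panel, peaks of both lists at the Src locus by distance from the given start of Src (kb), with narrow p63 peaks widened so that they can be seen and the Src window shaded. Lower panel, bases in H3K27ac peaks as a percentage of each 10 kb bin, with triangles at the 6 p63 peaks. Each H3K27ac peak is counted whole in the bin of its midpoint. So counted, the percentage reaches 84.2% just inside the gene and is at most 20.3% past the window.

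The Src span itself carried 40 of the 64 H3K27ac peaks and 4 of the 6 p63 peaks. Added up whole by midpoint, its H3K27ac peaks made 47.0% of its length. The peak of 1872 bases across the given start, with its midpoint 0.009 kb inside, is counted in full in the gene. Cut at the start, the gene would have less and the stretch before it more. The 44 kb of the window before the gene carried 23 H3K27ac peaks, at 22.0% coverage counted in the same way, and the other 2 p63 peaks. Cut at its middle, the gene had nearly equal numbers of H3K27ac peaks in its earlier and its later 27 kb, 21 and 19. Coverage, counted in the same way, was 65.6% in the earlier and 28.5% in the later stretch. The earlier stretch held all 6 of the peaks of 1000 bases or more within the gene. The stretches differed in their wide peaks rather than in the number of peaks. Those 6 peaks gave 74.4% of the acetylated bases of the earlier stretch. The median width was 327 bases in the earlier and 315 bases in the later stretch. Each stretch held 2 p63 peaks.

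Wide peaks were more common in the Src window than in the whole list, as they also were in the windows most like it. Of its 64 H3K27ac peaks, 8 (12.5%, Wilson 95% interval 6.47 to 22.8%) had at least 1000 bases, against 1.91% of all H3K27ac peaks, and these 8 gave 43.8% of the acetylated bases of the window, against 11.2% in the whole list. The median width was 308 bases (quartiles 218 and 638) in the window and 191 (quartiles 155 and 260) in the list. Only 7 of 64 peaks (10.9%) had the smallest width of the list, 150 bases, against 21.7% of all peaks. Width enters the number of bases by which the locus was chosen, so these values describe the choice and are not separate evidence. Intervals here cover counting error only and treat peaks as independent.

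Both of the widest H3K27ac peaks lay back to back inside Src. The peak at chr2:157251077-157255561 spans 4485 bases and ranks 17th in width among the 183757 H3K27ac peaks. The peak at chr2:157247706-157250996 spans 3291 bases, ranks 91st, and ends 80 bases before the other begins. It stands on row 15 of the deposited list, which is not in genome order; the list gives no score and the meaning of its order is not stated in the sources used here. Of the peaks of the Src window, 20 of 64 (31.2%) stand in the first 10% of rows. The peak that spans the given start of the gene, chr2:157243074-157244945, has 1872 bases.

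The other peaks of at least 1000 bases in the gene lay just downstream, beside p63 sites. They were chr2:157255764-157256981 with 1218 bases, chr2:157259055-157260317 with 1263 bases and chr2:157260411-157261457 with 1047 bases. Before the gene there were chr2:157220857-157222037, with 1181 bases, and chr2:157238223-157239321, with 1099 bases. Outside the Src window the locus had 1 such peak in each flank, chr2:157104784-157105809 (1026 bases) and chr2:157391454-157393089 (1636 bases). Neither flanking peak had a p63 peak, and the flanks held none at all. Over the whole list 0.839% of H3K27ac peaks shared a base with p63, so nothing is read from this.

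Peaks of the Src window stood close together. The median gap from an H3K27ac peak to the next was 450 bases in the window, 3296 bases in the upstream flank and 11004 bases in the downstream flank, against 5122 bases over the whole list. Inside the earlier 27 kb of the gene it was 216 bases. Of the 64 peaks, 49 (76.6%) were followed by another within 1000 bases, against 24.3% of all H3K27ac peaks. Joining peaks at most 1000 bases apart gave 9 domains of 2 or more peaks in the window, which took in 58 of the 64 peaks (90.6%, against 37.7% of all H3K27ac peaks). The number of peaks per window also chose the locus, and close spacing goes with it.

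The largest of these domains covered the start of Src. It ran over chr2:157242330-157264791, from 1.67 kb before the given gene start to 20.8 kb inside the gene, with 19 H3K27ac peaks that filled 76.7% of its 22462 bases. Among the 24666 joined domains of the genome, which have a median span of 1217 bases and a median of 2 peaks, it ranked 10th both by span and by acetylated bases. These ranks follow in part from the H3K27ac peaks and bases for which the locus was picked. When peaks had to be at most 500 bases apart to be joined, the largest domain of the locus spanned 13752 bases and ranked 13th of 19667. At 2000 bases it again spanned 22462 bases and ranked 42nd of 29994, and at 5000 bases it spanned 62730 bases and ranked 15th of 34923. At the longest joining distance tried it spanned 122169 bases and ranked 176th of 28533. Between its peaks lay gaps of at most 1000 bases, and 2 of the 6 p63 midpoints fell in them. In the whole window 5 of 6 midpoints fell in such gaps, against 20.2% of all p63 peaks. Such gaps are more frequent in a window this dense, and what part of the difference this makes was not tested. The next domains in span were chr2:157215458-157223255, with 10 peaks over 7798 bases, and chr2:157271288-157277938, with 8 peaks over 6651 bases. The domain before the gene held 1 p63 midpoint and the one inside the gene held 0.

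**Figure D3:**
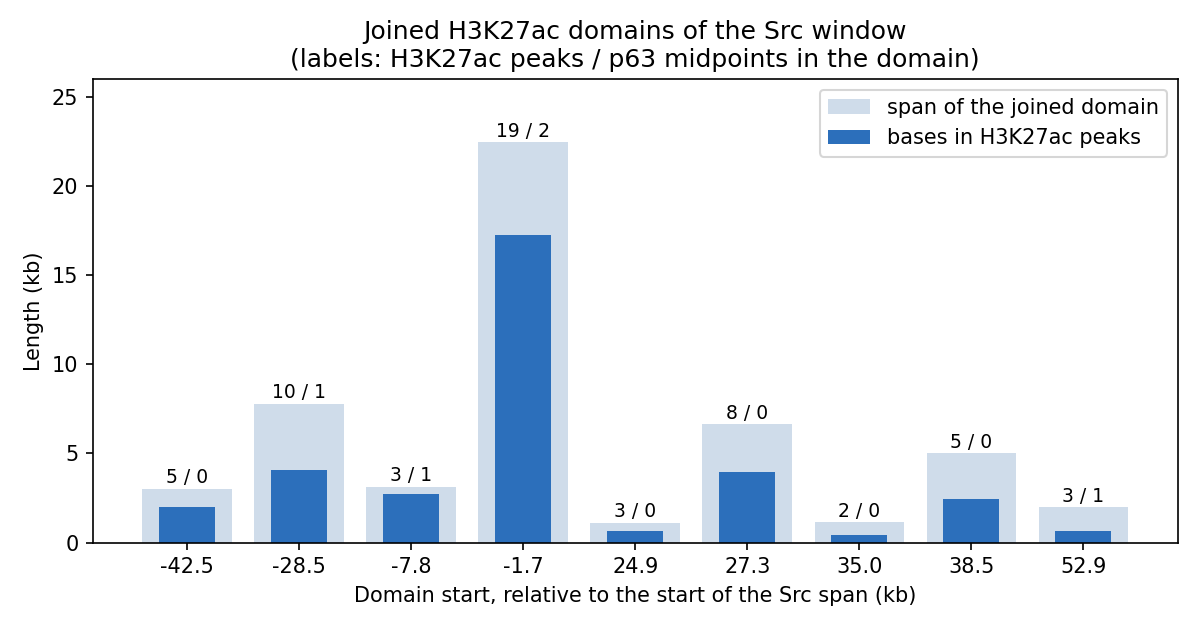
Span (pale bars) and acetylated bases (dark bars), both in kb, of the 9 joined H3K27ac domains of the Src window, ordered along the chromosome by the distance of their start from the given start of Src. Labels give the number of H3K27ac peaks and of p63 midpoints in each domain; the domain at the gene start has 19 and 2.

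The 6 p63 peaks lay closer to each other than to any other p63 peak. They lay within 78.9 kb of each other. The next p63 peak on the upstream side, chr2:157028748-157028957, was 190 kb from the first of them. The next on the downstream side, chr2:157985484-157985657, was 688 kb from the last. No value over the whole list was set beside these distances, so whether they are unusual was not tested. From upstream to downstream, the midpoints of the 6 were 18.8, 18.5, 4.63, 29.7 and 7.16 kb apart. Thus 4 of 6 had another p63 peak within 10 kb, against 14.6% of all p63 peaks. As the number of p63 peaks chose the locus, this share follows in part from that choice. The limits of the 350 kb stretch decided nothing for p63, since the peaks nearest to them lay 118 kb inside and 71.1 kb outside on the upstream side, and 153 kb inside and 536 kb outside on the downstream side. For H3K27ac the nearest peaks to the upstream limit lay 5.30 kb inside (1026 bases wide) and 0.161 kb outside (244 bases), and those nearest to the downstream limit 17.1 kb inside (208 bases) and 3.11 kb outside (213 bases).

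What the choice of the locus did not use is where p63 fell in relation to the H3K27ac peaks around it. None of the 6 p63 midpoints lay inside an H3K27ac peak (0 of 6, Wilson 95% interval 0 to 39.0%), against 18.8% of all p63 peaks. In 5 of 6 (83.3%, interval 43.6 to 97.0%) the midpoint lay in a gap of under 500 bases between neighbouring H3K27ac peaks, against 14.1% of all p63 peaks. Short gaps are more frequent in a window this dense, and what part of the difference this makes was not tested. By their edges, 4 of 6 (66.7%) shared at least 1 base with H3K27ac, against 34.8% of all p63 peaks. The Wilson 95% interval of this share includes 34.8%, so the 6 sites do not set it apart from the list. Overlap is also more likely in a window chosen for its H3K27ac bases, and what part of the difference this makes was not tested. With at least 50% of the p63 peak covered by H3K27ac, the count was 1 of 6, against 19.8% of all p63 peaks. The 4 overlapping p63 peaks thus crossed the border of an H3K27ac peak, with 16.5 to 71.9% of their bases shared, while their midpoints stood outside it. The other 2 touched none. At 2 of the 4, H3K27ac covered 36 and 21% of the bases within 50 bases of the midpoint, so these midpoints stood close to an edge. The list gives no peak summit, so the midpoint only stands in for the place of binding.

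Of the p63 peaks before the gene, the site farther upstream, chr2:157218314-157218507, was 194 bases wide and lay 25.6 kb before the given Src start. It sat in a gap of 370 bases, shared 32 bases with the peak of 659 bases on its right and stayed 208 bases clear of the peak of 303 bases on its left. The site nearer to the gene, chr2:157237046-157237390, lay 6.78 kb before the start and was the widest of the 6 at 345 bases. It bridged a gap of 253 bases completely, sharing 41 bases with the peak of 905 bases on its left and 51 bases with the peak of 696 bases on its right. Both sites upstream of Src were thus flanked by H3K27ac on each side.

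The sites in the acetylated core lay in the 2 shortest of the gaps that held p63. The site at chr2:157255684-157255815, 11.7 kb inside the gene and 132 bases wide, lay in the gap of 202 bases that follows the peak of 4485 bases. It was 122 bases from that peak and shared 52 bases with the peak of 1218 bases on its right. The site at chr2:157260217-157260547, 16.4 kb inside the gene and 331 bases wide, spanned a gap of only 93 bases. It shared 101 bases with the peak of 1263 bases on its left and 137 bases with the peak of 1047 bases on its right. Of its bases, 71.9% were acetylated, more than at any of the other 5 sites, where the share was 0 to 39.4%.

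The sites near the end of the gene lay in sparser acetylation. The site at chr2:157290050-157290205, 46.1 kb inside the gene and 156 bases wide, was the only 1 of the 6 with no H3K27ac within 1 kb, which leaves 5 of 6 within that distance, against 68.4% of all p63 peaks. It was 1262 bases from a peak of 177 bases and 2577 bases from a peak of 370 bases. The site at chr2:157297163-157297419, 0.71 kb before the given gene end and 257 bases wide, filled part of a gap of 441 bases. It missed a peak of 150 bases by 96 bases and a peak of 265 bases by 88 bases. Neither site shared a base with H3K27ac. The H3K27ac peaks beside them were at most 370 bases wide, whereas each of the 4 sites upstream had a neighbour of at least 659 bases.

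**Figure D4:**
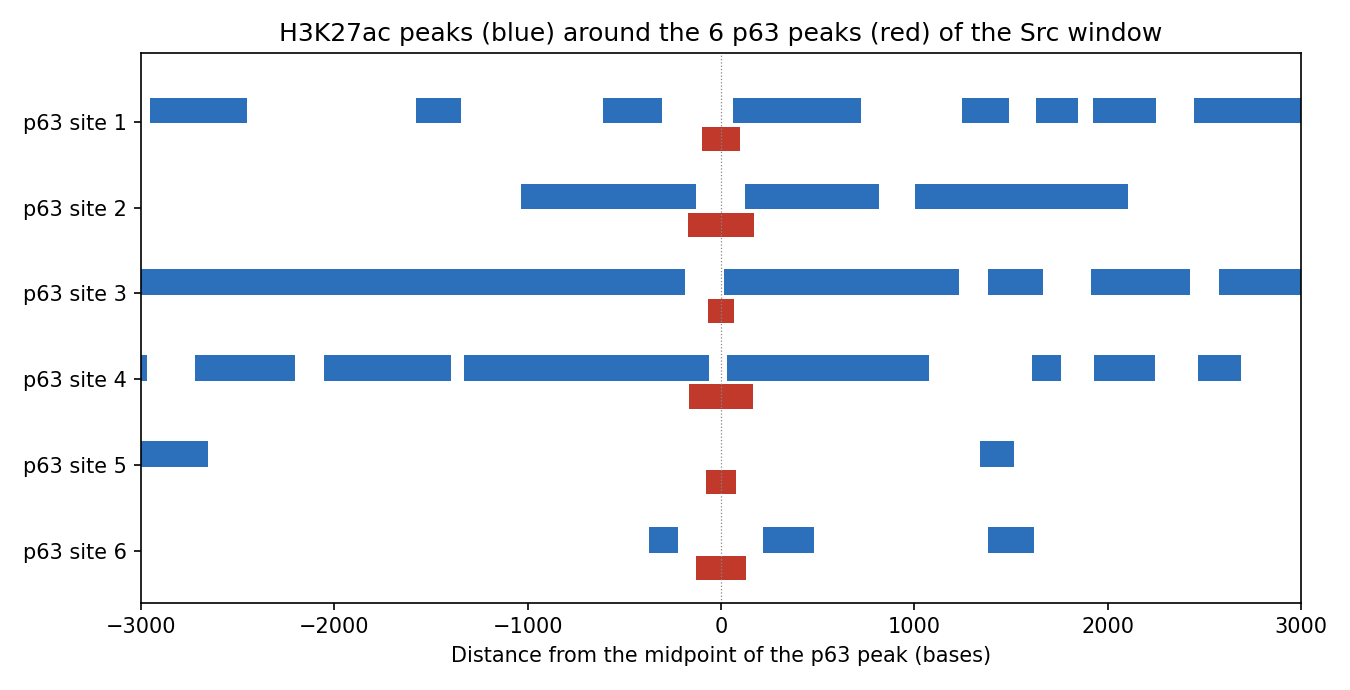
H3K27ac peaks (blue) within 3000 bases of the midpoint of each p63 peak (red) of the Src window, ordered from upstream (site 1) to downstream (site 6); the x axis is the distance from the p63 midpoint in bases. In 5 rows, all but site 5, the midpoint stands in a gap of 93 to 441 bases.

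Measured base by base, acetylated coverage was lower at the middle of the sites than beside them. Within 50 bases of the midpoint it was 0, 0, 36, 21, 0 and 0% at the 6 sites from upstream to downstream, and between 200 and 400 bases away it was 73.8, 100, 100, 100, 0 and 83.2%. The centre was lower than the flanks at 5 of 6 sites, against 39.5% of all p63 peaks, and at the site without nearby H3K27ac both values were 0. On average, coverage was 9.50% at the centre and 76.2% at the flanks for the 6 sites, and 19.2% and 30.8% for all p63 peaks. The high flank coverage goes with a window chosen for its H3K27ac bases. The centre was below the list's average of 19.2% for the mean of the 6 sites and at each site with 0%. It was above 19.2% at the sites 11.7 and 16.4 kb inside the gene, at 36 and 21%. Of the 6 sites, 2 overlapped 2 H3K27ac peaks at once, against 3.12% of all p63 peaks.

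Acetylation in the wider surroundings differed widely between the 6 sites. Within 5 kb on either side, H3K27ac peaks covered 42.5, 27, 90.1, 65.5, 13.8 and 9.72% from the most upstream site to the most downstream. The median over all p63 peaks was 6.32% and the upper quartile 15.9%. Every site was therefore above the median, and the 4 upstream ones were also above the upper quartile. The site 11.7 kb inside the gene ranked 6th among all 4130 p63 peaks, and that at 16.4 kb ranked 55th. These ranks follow the dense acetylation for which the locus was picked. The median of this coverage over the 6 sites was 34.7%. Over the p63 peaks of chr1:195300001-195400000 it was 68.25%, and over those of chr12:71700001-71800000 it was 24.2%. Both of these windows also hold at least 6 p63 and 30 H3K27ac peaks.

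The p63 peaks were mixed in width. Their median was 226 bases, against 181 bases (quartiles 145 and 221) in the list. The 345-base and 331-base peaks ranked 75th and 90th in width among all 4130, so that 2 of 6 had at least 300 bases, against 4.72% of all. The others ranked between 471st and 3454th. The widest peaks were those that bridged a gap completely and overlapped H3K27ac on either side, and the narrowest, of 132 bases, stood beside the widest H3K27ac peak. Peak width depends on depth and threshold as well as on binding, and the list holds no height to set beside it.

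From the acetylated side, 6 of the 64 H3K27ac peaks of the window (9.38%) shared a base with p63, against 0.839% of all H3K27ac peaks. The window was picked for its p63 and H3K27ac peaks, so a higher share follows from the choice and nothing is read from it. These 6 had a median width of 976 bases, against 450 bases for all H3K27ac peaks with p63. They were the peaks of 659, 905, 696, 1218, 1263 and 1047 bases named above. The 3 widest peaks of the locus, of 4485, 3291 and 1872 bases, shared no base with p63, although the widest ended 122 bases from a p63 peak. In the later 27 kb of the gene, none of the 19 H3K27ac peaks overlapped p63.

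Windows with a like number of p63 peaks differed in how p63 sat in the acetylation. The Src window was set against the only other windows with at least 6 p63 and 30 H3K27ac peaks, chr1:195300001-195400000 with 8 and 36 and chr12:71700001-71800000 with 6 and 32. p63 midpoints lay inside H3K27ac peaks at 0 of 6 sites in the Src window, at 5 of 8 in the chromosome 1 window and at 3 of 6 in the chromosome 12 window. They lay in gaps of under 500 bases at 5 of 6, 2 of 8 and 1 of 6. The Src window had more H3K27ac peaks, 64, and short gaps are more frequent in a window this dense. What part of the difference this makes was not tested. The share that overlapped by at least 1 base was 4 of 6, 7 of 8 and 4 of 6. The largest joined domain spanned 22462 bases in the Src window, 11403 bases in the chromosome 1 window and 7491 bases in the chromosome 12 window, with 2, 5 and 1 p63 midpoints inside. With 1 window each and no replicate, these differences were not tested.

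The build of the lists was checked against the gene table. If they were read as its build, GRCm38.p6, 1072 H3K27ac peaks of chromosome 7 would stand beyond the end of the annotated genes. The lists were read as mm9, the build named by the submitters.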

How the data were processed

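The authors deposited 2 peak lists with 3 columns (chromosome, start, end) and no header, score or strand. Per the submitters' processing notes, the tools included Bowtie 1.1.1 and MACS2 2.1.0 and the build was mm9; what settings, threshold and duplicate removal were used is not stated there. Each list is 1 ChIP called against 1 input, so depth and replicate spread are unknown and no test was run.

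Peaks were placed by midpoint in windows counted from position 1 of each chromosome, and starts are printed counted from 1. Bases and percentages of windows, bins and stretches of the locus add up whole peaks by midpoint. Peaks that cross an edge were not cut there. Ranks are 1 plus the number of larger values. A gap is the stretch between neighbouring H3K27ac peaks. Peak positions came from the lists, the gene span from the definition of the locus, and promoter and gene order from RefSeq tables (GRCm38.p6); no coordinate was converted between builds. The interval routines were tested on simulated data. Every p63 peak of the locus, every H3K27ac peak of at least 1000 bases and those beside a p63 peak were named. The locus and these rules were chosen with earlier results of these data known. No mm9 genome or annotation was used, so no peak sequence is shown and no kinase partner of Src was examined. The software was matplotlib 3.10.9, pandas 2.3.3, numpy 2.4.6 and Python 3.11.15.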

Additional observations from a re-analysis of the deposited data

How the results depend on the processing

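Of 34 alternatives, 22 stayed within 1.5 times of the reported value. Of the 6 p63 peaks, 0 overlapped H3K27ac when only the midpoint counted (18.8% of all p63 peaks) and 1 did when at least 50% of its bases had to be covered (19.8% of all), against 4 with 1 shared base (34.8% of all). The share among the 6 was thus above that of the whole list with 1 shared base and not with the stricter definitions. Windows moved by 50 kb gave 39 H3K27ac peaks and 20014 bases (ranks 133 and 64), and windows of 50 kb gave 36 and 19427 (ranks 25 and 27), because such windows cut the acetylated stretch or are shorter. Joining peaks left 15 units in the window (rank 692). The largest domain spanned 13752 bases when peaks at most 500 bases apart were joined (rank 13), 22462 at 2000 (rank 42), 62730 at 5000 (rank 15) and 122169 at the longest joining distance tried (rank 176). The flanks held 13.2 H3K27ac peaks per 100 kb together, 20.0 upstream and 8.67 downstream. The number of p63 midpoints in gaps was 5 of 6 at 500, 1000 and 2000 bases, where 14.1, 20.2 and 24.96% of all p63 peaks were in gaps. It was 4 of 6 without H3K27ac peaks of 150 bases (18.7% of all) and with the wider peaks of the list alone (14.6% of all), both settings being chosen after seeing the data. No paired analysis was possible because there is 1 library in each group, and for the same reason no replicate could be left out. Depth is unknown, so a gap is a stretch without a called peak and is not shown to lack acetylation.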
